A study of Danio rerio with 3 samples.

Results

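The cerebellin and C1q-like synaptic organizers were described here as 6 genes, *cbln1* (ENSDARG00000057296), *cbln2b* (ENSDARG00000077151), *cbln4* (ENSDARG00000061240), *c1ql3a* (ENSDARG00000010350), *c1ql3b* (ENSDARG00000036483), and *c1qtnf4* (ENSDARG00000024299), out of 29077 gene rows. They were taken by symbol, and they had been chosen by their shares of positive cells and their co-detection in neurons, progenitors, and glia of these same libraries. Their shares and co-detection are therefore given as a description, with no test.

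The cells came from the telencephalon of *Tg(sox2:gfp)* zebrafish of 12 weeks, in which GFP follows the promoter of *sox2*, a gene of neural stem cells (NSCs) and progenitors. All fish had been bathed in LY-411575 (LY), an inhibitor of gamma-secretase and thereby of Notch signaling, for 48 hours by the design text deposited with the data. The methods of the published study give a shorter treatment, and which length holds for these libraries was not settled here. GFP-positive cells were enriched by sorting and, by the published study, combined with as many GFP-negative cells. Shares of cell types therefore do not reflect the tissue, and the dissection favored the pallium. The LY dataset holds 3 replicate libraries from 3 sorting days, each from pooled fish. It is a single group, and DMSO-treated fish were not analysed here, so no value below measures an effect of LY.

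Cerebellins and C1q-like proteins are secreted proteins with a globular C1q domain that assemble into multimers. In mice, Cbln1 bridges presynaptic neurexins and postsynaptic receptors of the delta glutamate family, and Cbln2 and Cbln4 bind neurexins as well. Mouse C1ql3 binds the adhesion G protein–coupled receptor Bai3, and mouse C1ql2 and C1ql3 recruit kainate receptors at hippocampal mossy fiber synapses. C1QTNF4 is a secreted relative with a pair of C1q domains, known mainly from work on food intake and inflammation in mammals.

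The replicates held 8143, 6205, and 5349 barcodes, of which 7314, 5631, and 4897 cells were kept, with medians of 1520, 1646, and 1623 UMIs. Each cell was thinned at random to 1000 UMIs and shallower cells were left out of the shares, and a cell with at least 1 UMI was counted as positive. Shares are given for replicates 1, 2, and 3 in this order and as mean ± SD (n = 3), and intervals are exact Clopper-Pearson 95% intervals over the cells of all replicates that cover counting error only. Where no cell was positive, the share that this allows is given as 3 counts of the cells measured, which lies somewhat below the exact upper limit. Clusters were built without any gene of the family and were called X-like from marker lists. The neuron-like class held 7404 of 17842 kept cells (9 clusters; median 1345 UMIs), radial glia–like cells 4009 (median 1906), and cells like oligodendrocyte progenitors (OPC-like) 1401 (median 1344). Of the 8 OPC markers listed, 5 were raised, among them *olig2* and *sox10*, whereas *pdgfra* and *gpr17* were at or near 0. Libraries shared 62, 44, and 43 cell barcodes by pairs, and 1 barcode occurred in all 3.

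*c1qtnf4* had the most positive cells of the 6 genes, and its share was high in 2 classes. Among neuron-like cells, 22.3%, 32.8%, and 19.4% were positive (24.9% ± 7.03), and among oligodendrocyte-like cells 19.2%, 30.3%, and 32.8% (27.4% ± 7.25, 66 of 249 cells, interval 21.1 to 32.4%). The ranges of these classes overlapped, and replicate 2 was the highest in neuron-like cells. The other classes were lower, with 4.89% ± 0.490 of neuroblast-like, 3.03% ± 1.96 of OPC-like, 2.40% ± 0.563 of radial glia–like, and 1.44% ± 1.22 of proliferating-like cells. On the CPM scale, the part of a gene in all UMIs of a class without thinning, *c1qtnf4* reached 327, 520, and 268 in neuron-like and 224, 329, and 277 in oligodendrocyte-like cells.

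Macrophage-like cells, which should lack synaptic organizers, served as the background (median 1567 UMIs). In them, 1 of 113 cells had a *c1qtnf4* UMI (interval 0.0224 to 4.83%), below the share in oligodendrocyte-like cells in every replicate. Neuronal transcripts were found in both classes, at shares that were close for some genes and apart for others. *snap25a*, which encodes a protein of synaptic vesicle fusion, had a UMI in 12.0% ± 2.25 of macrophage-like and 11.8% ± 1.72 of oligodendrocyte-like cells, against 53.9% ± 4.51 of neuron-like cells. *rtn1b*, a reticulon gene, was found in 67.0% ± 4.59 of oligodendrocyte-like and 12.8% ± 8.57 of macrophage-like cells, and *elavl3*, which encodes a neuronal RNA-binding protein, in 42.4% ± 1.60 and 19.3% ± 7.69. Neuron-like cells had *rtn1b* UMIs in 70.0% ± 5.12 and *elavl3* UMIs in 61.6% ± 3.45 of cells. *rtn1b* was also found in 53.9% ± 1.75 of OPC-like cells, so it was not kept to neuron-like cells. The macrophage-like cells are thus no equal background for every gene of the neuron marker list in oligodendrocyte-like cells. Within the oligodendrocyte-like cells, *c1qtnf4*-positive and *c1qtnf4*-negative cells had *snap25a* UMIs in 12.4% ± 8.10 and 12.1% ± 0.829 of cells. The myelin genes *plp1a* and *mbpb* had UMIs in fewer of the *c1qtnf4*-positive than of the negative cells in all 3 replicates (11.1% ± 4.29 against 24.8% ± 6.15, and 28.4% ± 8.70 against 42.2% ± 8.27). Other genes of the list did not share this direction. *mbpa* (98.2% ± 3.04 against 94.7% ± 4.27) and *mpz* (100% against 97.8% ± 2.49) were higher in positive cells in 2 replicates. *mag* was close (21.6% ± 4.14 against 22.1% ± 9.08), and *plp1b*, *cd59*, and *cldnk* were found in every cell of both groups.

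*c1ql3b* was mainly found in neuron-like cells, where 8.14%, 9.98%, and 4.51% were positive (7.54% ± 2.78), and these held 78.0% ± 2.88 of all its positive cells while making up 37.9% of cells. Replicate 3 was the lowest, also on the CPM scale (164, 241, and 98.2 CPM). Many of these cells carried more than 1 molecule after thinning. Of the positive neuron-like cells, 42.2% had at least 2 UMIs, up to 16 in 1 cell, whereas none of the 46 positive radial glia–like cells had more than 1. The share of positive radial glia–like cells, 1.15% ± 0.745, lies inside the wide interval of the macrophage-like cells (2 of 113 cells, 0.215 to 6.25%). So few macrophage-like cells cannot tell whether this share was above background. The symbol *c1ql3b* stands a further time in the gene table under ENSDARG00000028521, which the reference names *c1ql1l2*. That row was kept apart, with 3 of 5229 neuron-like cells positive.

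The paralog *c1ql3a* had another place. OPC-like cells were positive in 18.3%, 12.2%, and 14.9% of cells (15.2% ± 3.07), at 187, 118, and 121 CPM, and they held 77.1% ± 5.14 of its positive cells while making up 8.11% of cells. In neuron-like cells the share was 0.208% ± 0.117 and in radial glia–like cells 0.210% ± 0.0393. None of 249 oligodendrocyte-like cells was positive, which allows a share of up to 1.20%, and none of 113 macrophage-like cells, which allows up to 2.65%. Within the OPC-like class, the larger cluster 4 was positive in 16.2% ± 3.50 of cells and cluster 23, in 4 of the 89 cells deep enough. Cluster 12, which stayed unnamed with 3 OPC and 3 oligodendrocyte markers raised, lay between at 4.01% ± 1.47. *c1ql3a*-positive OPC-like cells had *olig2* and *sox10* UMIs, which encode transcription factors of the oligodendrocyte lineage, in 63.7% ± 8.99 and 40.4% ± 3.73 of cells, against 65.3% ± 5.001 and 42.2% ± 3.25 of the negative cells. Other markers of the list differed in direction. *olig1* (54.4% ± 7.70 against 48.5% ± 6.95) and *aplnra* (94.4% ± 2.53 against 91.2% ± 2.64) were higher in positive cells in all 3 replicates. *nkx2.2a* (31.8% ± 7.84 against 39.9% ± 4.20) was higher in them in 1 replicate.

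The cerebellins were found in few cells. In neuron-like cells, *cbln1* was positive in 2.17%, 2.70%, and 2.38% (2.42% ± 0.267), *cbln2b* in 2.60%, 4.15%, and 2.46% (3.07% ± 0.936), and *cbln4* in 2.56%, 2.58%, and 2.13% of cells (2.42% ± 0.253). These neuron-like cells held 62.5% ± 2.26 of the *cbln1*-positive, 67.1% ± 6.25 of the *cbln2b*-positive, and 68.2% ± 3.21 of the *cbln4*-positive cells. None of 113 macrophage-like cells was positive for any of the 3 cerebellins, which allows up to 2.65% (exact upper limit 3.21%), so a background near the neuron-like shares could not be told from 0 in that class alone. The radial glia–like class, with 3700 cells deep enough, gave a closer bound. Its shares were 0.471% ± 0.161 for *cbln1*, 0.449% ± 0.284 for *cbln2b*, and 0.965% ± 0.161 for *cbln4*, each below the neuron-like share in all 3 replicates. More than 1 UMI was found in 27.2% of *cbln1*-positive, 20.6% of *cbln2b*-positive, and 5.43% of *cbln4*-positive neuron-like cells.

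**Figure D1:**
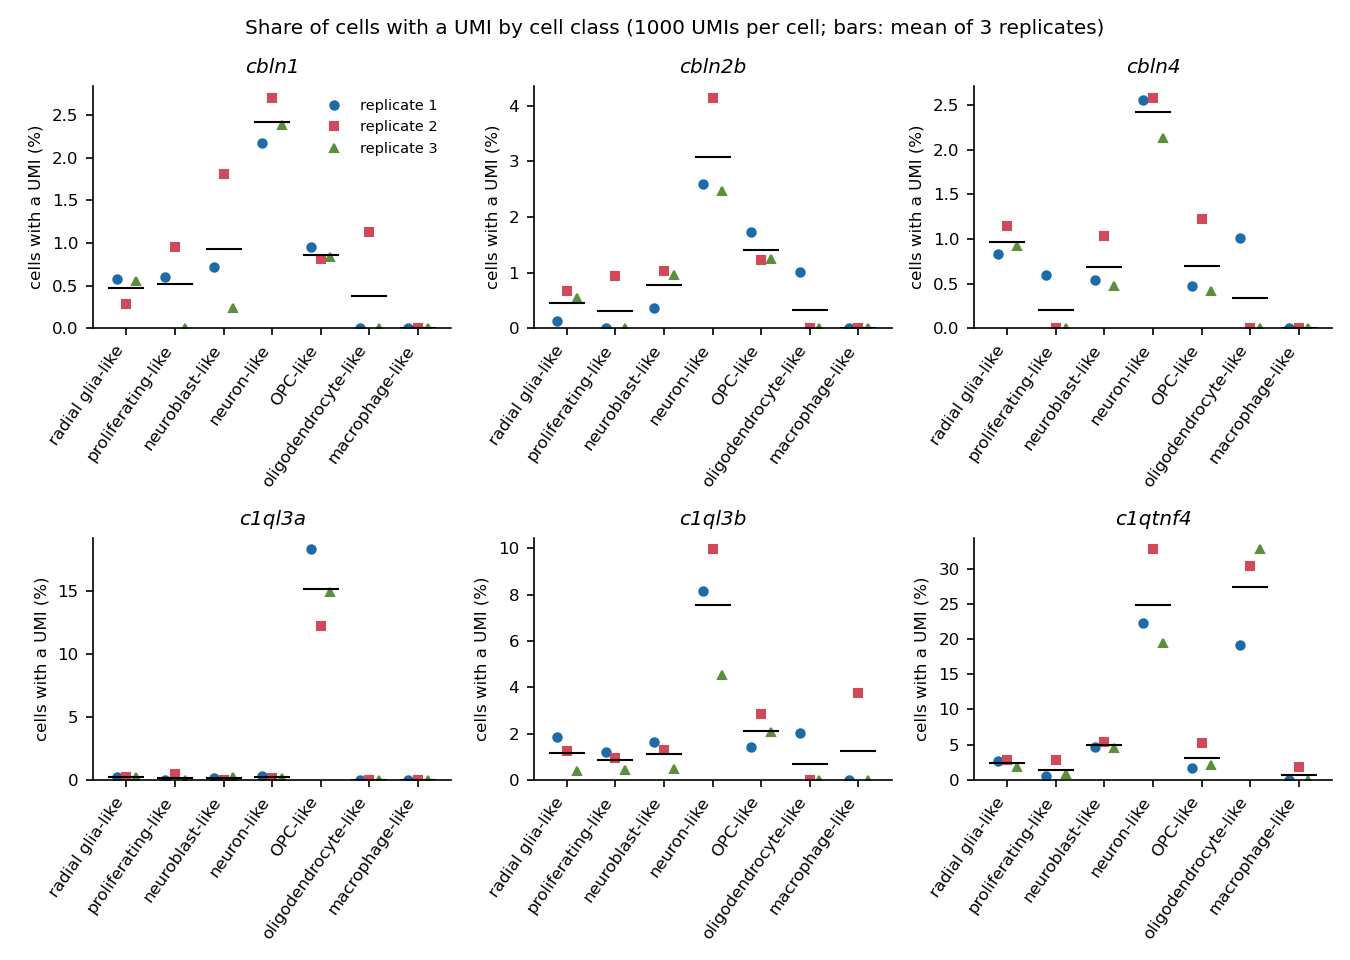
Share of cells with a UMI (%, y axis) of each gene in the named cell classes (x axis), with 1 point per replicate and a black bar at the mean. *c1ql3a* stands out in OPC-like cells (15.2%), *c1qtnf4* in neuron-like (24.9%) and oligodendrocyte-like cells (27.4%), and the other 4 genes in neuron-like cells.

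By class, 2 of the 6 genes had their highest share outside neuron-like cells, *c1ql3a* in OPC-like and *c1qtnf4* in oligodendrocyte-like cells. The second of these placements did not hold without replicate 3, where the neuron-like share was higher. Of all 15870 genes with at least 10 positive cells, 81.6% had their highest share outside neuron-like cells. The genes had been chosen by their shares, so nothing is read from this comparison.

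In progenitors and glia, *cbln4* was unevenly spread. Of 35 *cbln4*-positive radial glia–like cells, 24 lay in cluster 11, led by *cx43*, *slc1a2b*, and *mfge8a*, where 2.59%, 4.60%, and 3.55% of cells were positive (3.58% ± 1.01). Cluster 17 had 7 of 403 positive cells, and the larger clusters 1 and 6, in which *ccnd1* was a leading gene, had 1 of 1601 and 3 of 991. *cx43* and *slc1a2b* were also among the leading genes of clusters 6 and 17. Across all radial glia–like cells, the *cbln4*-positive cells had UMIs of *mfge8a* in 93.3% ± 11.5 against 43.9% ± 5.62 of negative cells, of the glutamate transporter gene *slc1a2b* in 94.7% ± 4.64 against 66.5% ± 3.31, and of the gap junction gene *cx43* in 96.7% ± 5.77 against 73.1% ± 2.63. The cyclin gene *ccnd1* was found in fewer of them, 36.5% ± 8.53 against 73.8% ± 0.992. Each of these directions held in all 3 replicates, as did higher shares of *glula*, *s100b*, *timp4.3*, *her4.1*, and *id1*. Of the same marker list, *fabp7a* was higher in *cbln4*-positive cells in 2 replicates and *gfap* in 1. The part of cluster 11 in these differences was not tested. Cluster 11 was also deeper than the other radial glia–like clusters before thinning (median 2805.5 UMIs, against 837 to 1904), and no positive radial glia–like cell had more than 1 *cbln4* UMI.

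Neuron-like clusters divided the members. Cluster 15 (585 cells), led by *adcyap1b*, which encodes the neuropeptide PACAP, and by the secretogranin gene *scg2b*, had the highest shares of 2 members. *c1ql3b* was positive there in 46.5%, 55.1%, and 34.2% of cells (45.3% ± 10.5), and *c1qtnf4* in 57.5%, 66.7%, and 57.0% (60.4% ± 5.45). No cell of the 461 in this cluster was positive for *cbln1*, which allows up to 0.651%. Cluster 8, led by *nell2b* and *adcyap1b*, was the next for both, with 10.5% ± 2.68 for *c1ql3b* and 38.2% ± 4.97 for *c1qtnf4*. In replicates 1, 2, and 3 its cells were positive for *cbln1* in 6.61%, 8.06%, and 8.66% (7.78% ± 1.06), the highest *cbln1* share of the 9 clusters.

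Cluster 7, led by *gad2* and *slc32a1*, genes of GABA synthesis and vesicular GABA transport, had the highest shares of the other cerebellins. Its cells were positive for *cbln2b* in 5.87%, 15.5%, and 6.63% (9.35% ± 5.38) and for *cbln4* in 5.31%, 4.05%, and 4.97% (4.78% ± 0.649). For *cbln2b* the value rests on replicate 2, and the ranges of clusters 7 and 8 overlap. Cluster 2, led by *tubb5* and *bhlhe22*, had *c1qtnf4* UMIs in 29.9% ± 5.26 of cells and cluster 7 in 27.5% ± 3.12, and the remaining 5 clusters had mean shares between 5.55 and 8.65%. Cluster 5, which stayed unnamed with 6 of 13 neuron markers raised and a median of 948 UMIs, was positive for *cbln1* in 4.88% ± 1.29 and for *c1qtnf4* in 16.6% ± 3.30 of cells.

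**Figure D2:**
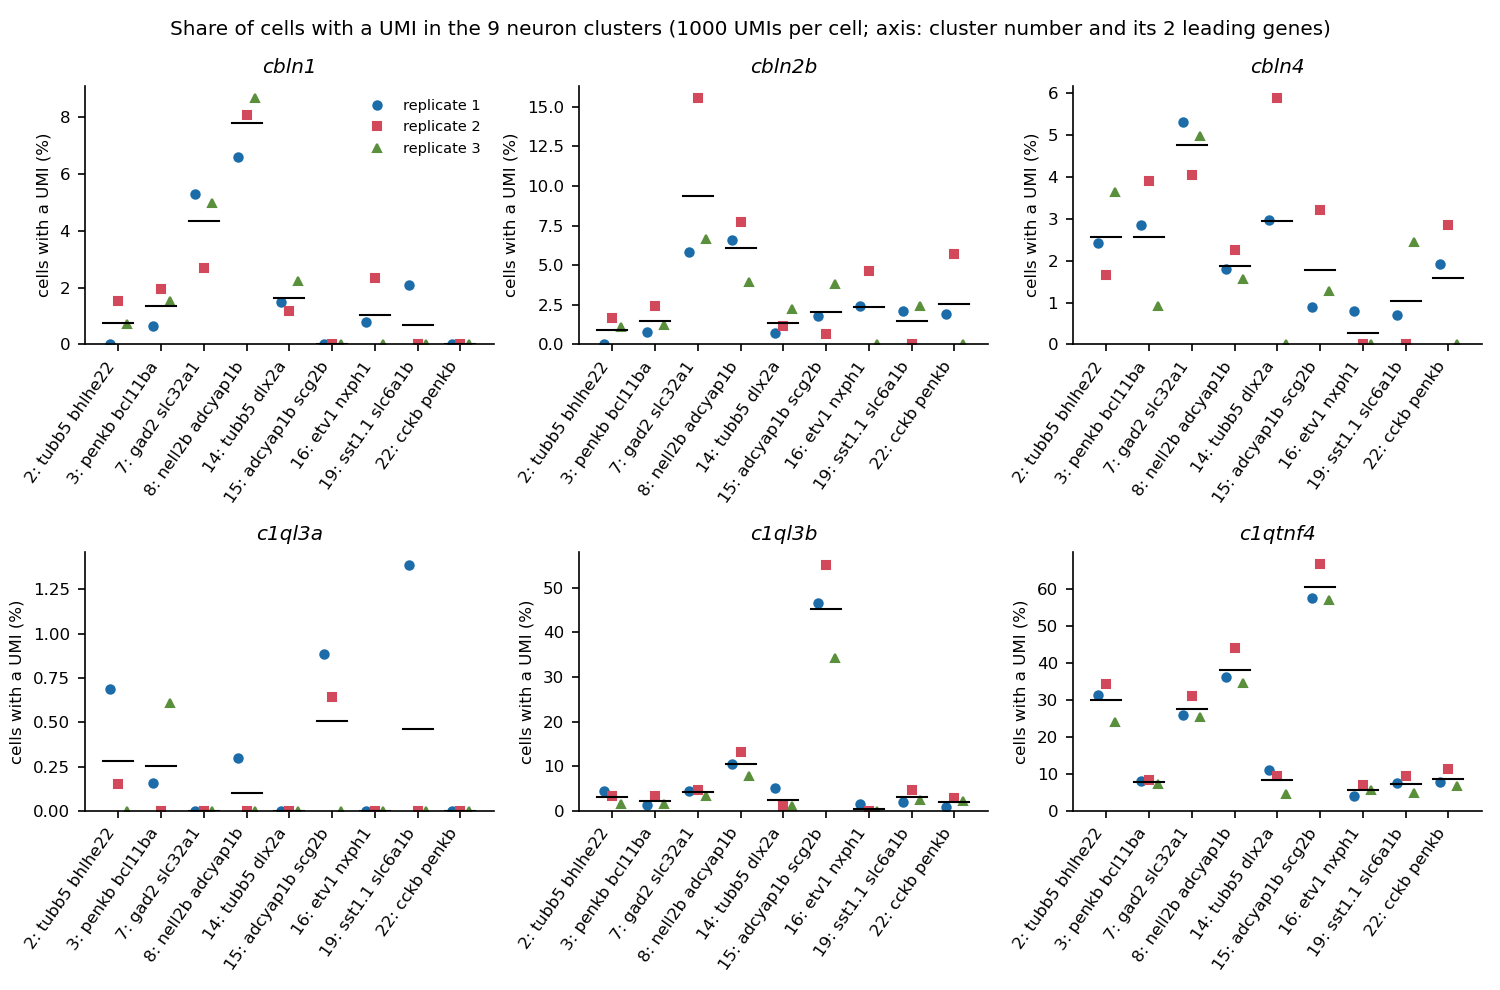
Share of cells with a UMI (%, y axis) of each gene in the 9 neuron-like clusters (x axis, cluster number and 2 leading genes), with 1 point per replicate and a bar at the mean. *c1ql3b* and *c1qtnf4* are highest in cluster 15 (45.3 and 60.4%), *cbln1* in cluster 8 (7.78%), and *cbln2b* and *cbln4* in cluster 7 (9.35 and 4.78%).

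Neuron-like cells were then divided by marker UMIs. Pallial-marker neurons had at least 1 UMI of *neurod2*, *tbr1b*, or *nell2b* and none of the subpallial markers, and subpallial-marker neurons had at least 1 UMI of *dlx5a*, *six3b*, *tac1*, or *nxph1* and none of the pallial markers. The pallial-marker group held 2428 cells (median 1511 UMIs) and the subpallial-marker group 2134 (median 1265.5), and 1334 cells had markers of both. Transmitter genes outside the marker lists separated the groups in part. The vesicular glutamate transporter gene *slc17a6a* had UMIs in 10.2% ± 3.10 of pallial-marker and 1.26% ± 0.539 of subpallial-marker neurons, and *gad2* in 11.3% ± 6.10 and 45.8% ± 9.95. Gate markers were found outside neurons as well. The subpallial marker *nxph1* had a UMI in 247 of 1120 OPC-like cells (21.1% ± 8.12), a higher share than in neuron-like cells (5.62% ± 1.51). *nell2b* had a UMI in 13.7% ± 1.60 of OPC-like cells. Of 113 macrophage-like cells, 7 had a *dlx5a* UMI and 4 had a *nell2b* UMI. The source of these UMIs was not tested.

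*c1qtnf4* was positive in 35.9%, 42.5%, and 28.5% of pallial-marker neurons and in 9.34%, 14.4%, and 10.1% of subpallial-marker neurons. The groups did not overlap, and the difference was 24.3 ± 5.20 percentage points. For *c1ql3b* the shares were 14.4%, 11.8%, and 7.20% against 1.56%, 3.32%, and 2.34%, again without overlap, a difference of 8.74 ± 3.99 points. *cbln1* was higher within each replicate, with 2.76%, 2.55%, and 1.60% against 1.04%, 1.85%, and 0.779% (1.08 ± 0.557 points), but the groups overlapped. Neuron-like cells with no gate marker had higher *cbln1* shares than either group, 3.53%, 3.24%, and 5.29%. Those with markers of both stood at 3.07% ± 0.900. With summed UMIs of all depths, the fitted log2 fold of pallial-marker over subpallial-marker neurons was 2.92 (SE 0.13) for *c1ql3b*, 2.17 (SE 0.09) for *c1qtnf4*, and 0.76 (SE 0.24) for *cbln1*. The *cbln1* fold was 0.24 without replicate 1, and in replicate 3 the levels were 17.0 CPM in pallial-marker and 16.6 CPM in subpallial-marker neurons.

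*cbln2b* and *cbln4* took no such direction. *cbln2b* had shares of 2.91%, 3.48%, and 1.60% in pallial-marker and 2.33%, 4.43%, and 3.12% in subpallial-marker neurons (difference −0.63 ± 1.08 points), and *cbln4* 1.74%, 2.204%, and 2.40% against 2.98%, 4.06%, and 2.08% (−0.92 ± 1.12 points). The differences had both signs among the replicates, and the groups overlapped. *c1ql3a* was positive in 5 of 1925 and 1 of 1427 cells.

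Of the 5 members with at least 10 positive cells, 3 were higher in pallial-marker neurons in all 3 replicates and 0 were lower, while 19.5% and 16.9% of the 11711 genes compared in the same way were so. The members had been chosen by these shares, so the count is no support for a difference. With 3 replicates an exact sign-flip test could not have gone below 0.25.

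**Figure D3:**
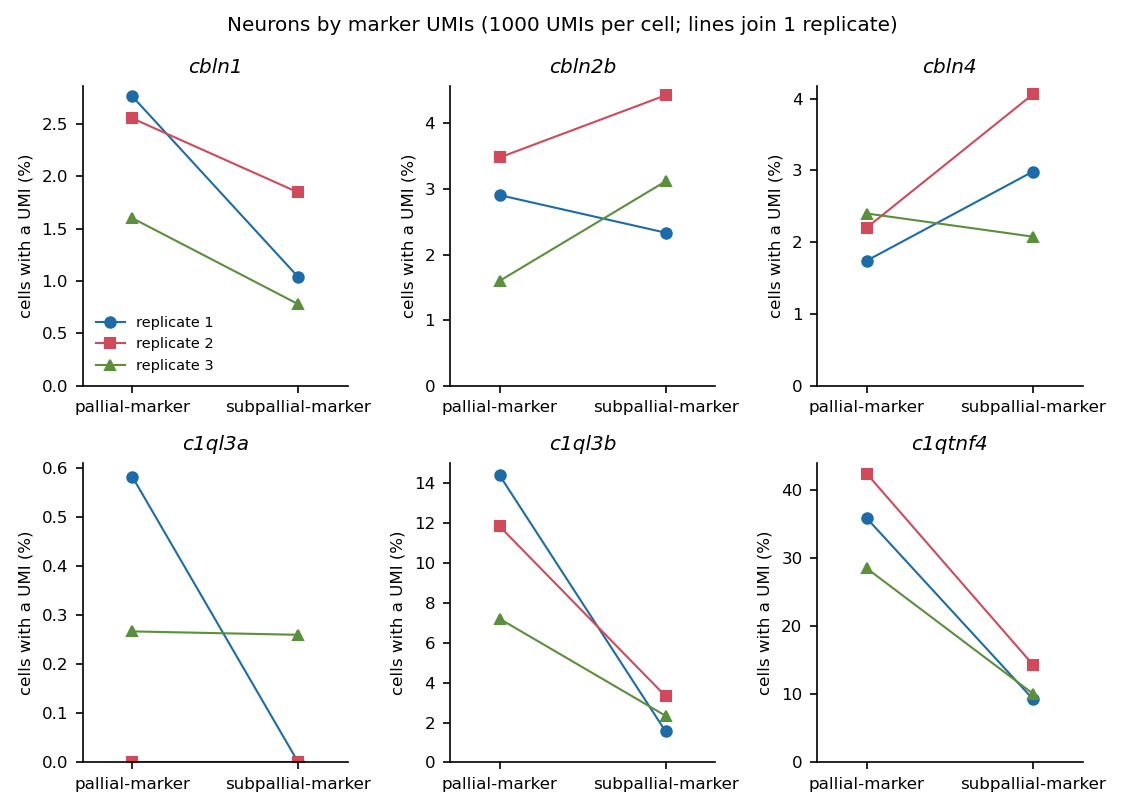
Share of cells with a UMI (%, y axis) of each gene in pallial-marker and subpallial-marker neurons (x axis), with lines joining the values of a replicate. For *c1qtnf4* and *c1ql3b* the lines fall from the pallial-marker to the subpallial-marker side without overlap of the groups, and for *cbln2b* and *cbln4* they cross.

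The gene *nell2b*, which encodes a secreted neuronal glycoprotein, carried much of the pallial gate. When it was left out of the gate, the pallial-marker group fell to 1310 cells. The subpallial-marker group rose to 2878, because cells with *nell2b* and a subpallial marker but no other pallial marker then entered it. Both sides of the comparison thus changed. The difference was then 2.03 ± 1.79 points for *c1ql3b* and 0.15 ± 1.04 for *cbln1*, and neither kept its direction in all 3 replicates. *c1qtnf4* was still higher in pallial-marker neurons in all 3 (16.7 ± 3.36 points). The fitted log2 folds of summed UMIs were 0.83 for *c1ql3b* and 1.16 for *c1qtnf4* in this setting. By single markers, *c1ql3b* was positive in 12.0% ± 4.15 of neuron-like cells with a *nell2b* UMI, in 8.21% ± 2.63 with *neurod2*, and in 5.50% ± 1.14 with *tbr1b*. For the subpallial markers the shares were 6.22% ± 1.40 with *tac1*, a tachykinin gene, 4.98% ± 1.71 with *six3b*, 4.87% ± 1.57 with *dlx5a*, and 4.79% ± 2.24 with *nxph1*. Of the gate markers, *tac1* was also the one whose cells had the highest *cbln1* share, 5.31% ± 2.32. For *c1qtnf4*, cells with *tac1* stood near those with pallial markers. Its share was 28.6% ± 2.34 with *tac1*, against 28.5% ± 4.56 with *neurod2*, 30.03% ± 6.92 with *tbr1b*, and 33.9% ± 6.51 with *nell2b*. With the other subpallial markers it was lower, 15.3% ± 2.81 with *dlx5a*, 15.02% ± 3.26 with *nxph1*, and 14.1% ± 4.04 with *six3b*. A division by transmitter genes gave differences of 31.5 ± 2.61 points for *c1qtnf4* and 13.9 ± 0.265 points for *c1ql3b*, glutamatergic minus GABAergic, both with 1 direction in every replicate. *cbln1* was higher in glutamatergic neurons in all 3 replicates too, by 1.18 ± 0.604 points.

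The gates drew on different clusters. Pallial-marker neurons came mainly from clusters 2 (43.1% ± 12.7), 8 (24.3% ± 5.18), and 15 (15.1% ± 3.31), and subpallial-marker neurons from clusters 3 (37.4% ± 3.36), 16 (18.7% ± 1.89), 14 (15.3% ± 2.78), and 7 (13.8% ± 1.39). The replicates differed in these cells too. Pallial-marker neurons numbered 837 of 3180, 1093 of 2329, and 498 of 1895 neuron-like cells, and replicate 2 had both the most of them and the highest *c1qtnf4* share of neuron-like cells. Replicate 2 was also the highest for *c1qtnf4* within the pallial-marker gate and in 8 of the 9 neuron-like clusters, while in cluster 14 replicate 1 was. The part of the composition in the shares of the whole class was not tested.

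Co-detection asked whether members were found in the same cells more often than the product of their shares gives. *c1ql3b* and *c1qtnf4* were found together in 221 neuron-like cells, against 108 expected. The excess was smaller within clusters. When the expected number was formed within each cluster and replicate, it was 191 (ratio 1.16), with 91, 101, and 29 cells observed against 83.1, 85.9, and 21.9 expected. The observed number was higher in all 3 replicates, by a small margin. In cluster 15 alone, 149 cells had both against 133 expected. Among pallial-marker neurons, 59.2% ± 5.59 of *c1ql3b*-positive and 32.9% ± 6.66 of *c1ql3b*-negative cells were *c1qtnf4*-positive (135 cells with both against 86.6 expected).

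*cbln1* and *cbln2b* were found together in 21 neuron-like cells against 3.91 expected (ratio 5.38). The excess remained larger here within clusters, where 6.74 were expected (ratio 3.12), and the replicates had 9, 10, and 2 such cells against 2.70, 2.88, and 1.16. Cluster 8 held 13 of them against 3.82 expected, and cluster 7 held 3 against 2.33. *cbln1* and *c1qtnf4* shared 53 cells against 36.8 expected within clusters (ratio 1.44, above in all 3 replicates). *cbln4* and *c1qtnf4* shared 30 against 32.1, and *cbln1* and *c1ql3b* shared 8 against 8.67, close to what the shares give. In pallial-marker neurons 5 of the 15 pairs had an expected number of at least 2 cells per replicate on average, of which *c1ql3b* with *c1qtnf4* was above in all 3 replicates. In subpallial-marker neurons no pair reached that number.

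**Figure D4:**
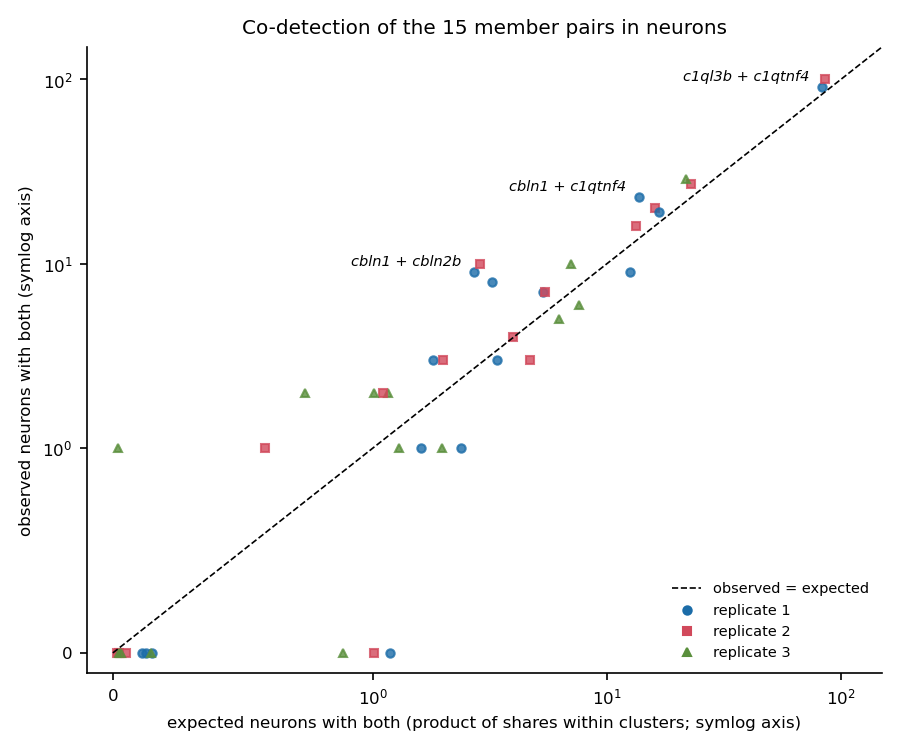
Neuron-like cells with UMIs of both members of a pair (y axis, number of cells) against the number expected from the product of the shares within clusters (x axis, number of cells; both axes linear near 0 and logarithmic above), for 15 pairs with 1 point per pair and replicate. *cbln1* with *cbln2b* lies above the dashed line of equality in all 3 replicates (9, 10, and 2 cells), and *c1ql3b* with *c1qtnf4* lies just above it (91, 101, and 29 cells).

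The rest of the family was found in few cells. The gene table holds 35 rows with symbols of cerebellins, C1q-like, C1q/TNF-related, or complement C1q genes, and of the 28 rows that carry no member symbol 11 had no UMI in kept cells and 13 had fewer than 100. The 4 others were *c1ql4a*, *c1qa*, *c1qb*, and *c1qc*. *c1ql4a*, a further C1q-like organizer, had the same class as *c1ql3a*, with 12.5%, 17.1%, and 15.4% of OPC-like cells positive (14.97% ± 2.32) and 0.187% ± 0.108 of neuron-like cells. They shared 28 OPC-like cells against 25.1 expected, with replicate 3 below its expected number. The complement genes were found in macrophage-like cells, *c1qb* in 56.0% of them.

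Likeness of pattern was read across 74 sums of a cluster in a replicate, as Pearson correlation of log2(CPM + 10) among 6102 genes. These sums share libraries and clusters, and the values describe them without a test. For *c1ql3b* the nearest genes were *bdnf* (0.82), which encodes a neurotrophin, *nell2b* (0.79), and *chga* (0.79), and for *c1qtnf4* *sept5a* (0.80), *nell2b* (0.78), and CR974456.1 (0.78). *c1ql3a* was nearest to *prx* (0.88), *cacng4a* (0.86), which encodes an auxiliary subunit of AMPA receptors, and *syt9b* (0.83). The cerebellins had weaker neighbors. They were *lhx9* (0.66), BX936308.1 (0.61), and *rprml* (0.59) for *cbln1*, *drd2b* (0.74), *serpini1* (0.73), and si:dkey-7j14.5 (0.73) for *cbln2b*, and *negr1* (0.63), *cspg5a* (0.63), and *ldb2b* (0.63) for *cbln4*.

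Receptors and partners of these organizers were compared between the gates, as genes that the gates did not use. The partner list had been chosen with earlier results of these data known. Of 8975 genes tested with edgeR, 8.36% were higher in pallial-marker and 9.09% in subpallial-marker neurons. Of 49 listed partner genes, 33 were tested, of which 12 were higher in pallial-marker neurons, 9 in subpallial-marker neurons, and 12 did not pass, with a median log2 fold of 0.24 against −0.01 over all genes tested. Fewer passed under some other settings, 2 and 3 when the replicate was no block and 5 and 4 with DESeq2. With UMIs thinned to 1000 per cell 9 and 5 passed, and without replicate 3 there were 13 and 9. After thinning *nrxn1a*, *nrxn2a*, *adgrb1a*, *lrrtm2*, *clstn1*, *clstn3*, *gria4a*, and *gria4b* were not called. When *nell2b* was left out of the gate, which changed both groups of cells, 5 and 10 passed. In this last setting *nrxn1a*, *clstn1*, and *gria1a* were not called, nor were *adgrb1b* and *clstn3*, whose folds turned negative. With the replicate as a block, p-values here set a fold against the spread of the differences within libraries. The edgeR fit shares that spread in part across genes. The replicates of a single gene can spread more, as for *nrxn3a*, with log2 ratios of −1.57, −2.85, and −1.26 in replicates 1, 2, and 3.

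Among the neurexins, the presynaptic partners, all 5 tested genes passed. *nrxn3a* stood at 108, 23.5, and 69.3 CPM in pallial-marker against 324, 175, and 167 CPM in subpallial-marker neurons, without overlap (log2 fold −1.81, SE 0.15, adjusted p = 1.1e-11). *nrxn3b* (−1.16), *nrxn2b* (−1.01), and *nrxn2a* (−0.72) were lower in pallial-marker neurons as well, and *nrxn1a* was higher (0.41). *nrxn3b* passed under each of the 9 alternatives, and the others were lost without the replicate block.

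Both copies of *grid1*, which encodes a delta glutamate receptor, were higher in pallial-marker neurons. *grid1a* stood at 37.5, 29.1, and 30.4 CPM against 11.3, 9.14, and 13.3 CPM, without overlap (log2 fold 1.55, SE 0.26, adjusted p = 2.3e-05 by edgeR). *grid1b* had a log2 fold of 0.89 (SE 0.23, adjusted p = 0.0038), which did not pass without replicate 2. Neither passed when *nell2b* was left out of the gate.

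Receptors named for C1q-like proteins and Cbln4 gave fewer calls. The Bai3 gene *adgrb3* did not pass (log2 fold −0.14, SE 0.24), while its relatives *adgrb1a* (−0.60) and *adgrb1b* (0.42) passed in opposite directions, both not without replicate 1. Among kainate receptor subunits *grik4* was lower in pallial-marker neurons (−1.43, SE 0.29), and *grik1a* (−0.46) and *grik5* (−0.33) did not pass. The netrin receptor genes *neo1a* (0.41) and *neo1b* (−0.25) did not pass.

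Other synaptic organizers and AMPA receptor subunits completed the list. The neuronal pentraxin gene *nptx1l* stood at 398, 498, and 386 CPM in pallial-marker against 134, 116, and 126 CPM in subpallial-marker neurons (log2 fold 1.74, SE 0.10, adjusted p = 5.1e-16), and was not called when *nell2b* was left out of the gate. The neuroligin genes *nlgn1* (0.99) and *nlgn3b* (0.62) and the LRRTM gene *lrrtm2* (0.36) were higher in pallial-marker neurons, as were the calsyntenin genes *clstn1* (0.32) and *clstn3* (0.24), lost without replicates 2 and 1, respectively. AMPA receptor subunit genes divided, with *gria2b* (0.62) and *gria1a* (0.55) higher in pallial-marker and *gria1b* (−1.26), *gria4b* (−1.18), and *gria4a* (−0.57) higher in subpallial-marker neurons. *gria1b* passed under each of the 9 alternatives, and *gria4a* did not pass without replicate 2.

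**Figure D5:**
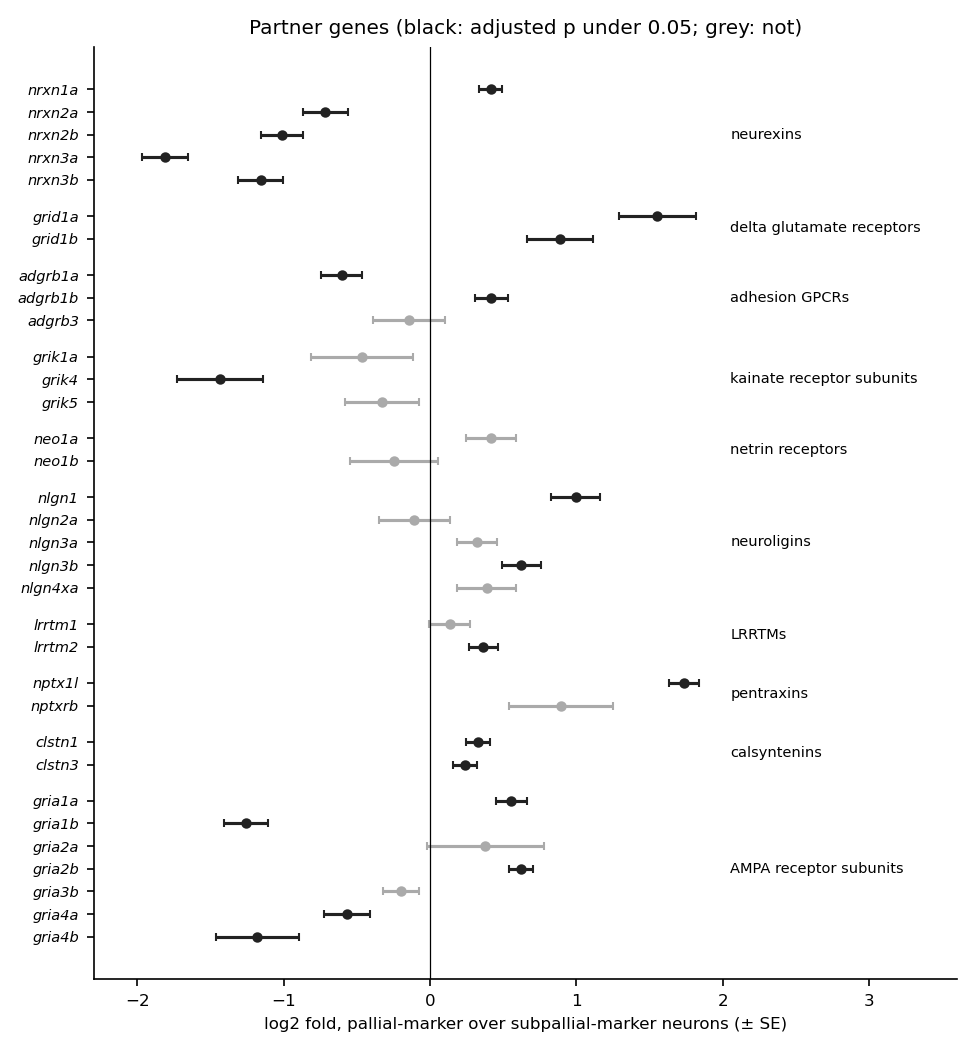
Log2 fold of summed UMIs, pallial-marker over subpallial-marker neurons (x axis, ± SE from the edgeR fit over 3 replicates), for the 33 partner genes tested (y axis), with genes past an adjusted p of 0.05 in black. *nrxn3a* lies at −1.81, *grid1a* at 1.55, and *nptx1l* at 1.74.

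Neurons with and without *c1qtnf4* were compared across genes within each gate, the one member with at least 30 positive cells in every replicate. *adcyap1b* led the rise in both gates by its test. In pallial-marker neurons (247, 366, and 107 positive cells), 303 of 4409 genes passed (6.87%), 154 higher (3.49%) and 149 lower (3.38%) in *c1qtnf4*-positive cells. *adcyap1b* stood at 5462, 3896, and 4230 CPM in positive against 2336, 1706, and 1254 CPM in negative cells (log2 fold 1.35, SE 0.08, edgeR adjusted p = 8.3e-36), without overlap. In subpallial-marker neurons (72, 39, and 39 positive cells), 69 of 2340 genes passed (2.95%), 32 higher (1.37%) and 37 lower (1.58%), and *adcyap1b* stood at 875, 2650, and 3258 against 310, 303, and 201 CPM (log2 fold 2.84, SE 0.17, edgeR adjusted p = 6.5e-56). *adcyap1b* passed under each of the 8 alternatives in both gates. Over these edgeR and DESeq2 fits its adjusted p reached 0.044 in pallial-marker and 0.011 in subpallial-marker neurons. In subpallial-marker neurons its level in positive cells ranged from 875 to 3258 CPM over the replicates. The SE and p of the main fit share spread across genes, so they do not measure the spread of this gene alone.

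The other genes with the largest rise in pallial-marker neurons were *igf2a* (log2 fold 2.14), which encodes an insulin-like growth factor, *stc2a* (1.62), a stanniocalcin gene, *eif4ebp3l* (1.48), a gene of a translational repressor, and *atp1a1b* (1.26), a gene of a sodium pump subunit. The largest falls were those of the neuropeptide genes *penka* (−1.99), *pyyb* (−1.97), and *cart3* (−1.75), and of *abi1b* (−1.65) and zgc:162707 (−1.49). *penka*, *abi1b*, and zgc:162707 did not pass without replicate 2, nor *cart3* and zgc:162707 without replicate 1. By replicate, positive cells had only 5, 8, and 1 UMIs of *penka*, 5, 5, and 5 of *abi1b*, and 1, 8, and 4 of zgc:162707. For *pyyb* the negative cells stood at 676, 61.0, and 280 CPM, and in replicate 2 the positive cells, at 49.99 CPM, differed little from them.

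In subpallial-marker neurons *neurod1* (1.51), a proneural transcription factor gene, *islr2* (1.21), *scg2b* (1.16), and *lgi1a* (1.04) rose most after *adcyap1b*. The largest falls were those of *nkx2.1* (−2.82), a transcription factor gene of the ventral subpallium, the potassium channel gene *kcnd2* (−2.21), *rgmb* (−2.11), and the *sox* genes *sox3* (−2.00) and *sox11a* (−1.79). Positive cells had 2 UMIs of *nkx2.1* and 3 of *kcnd2* in all. By replicate they had 1, 1, and 2 of *rgmb*, 2, 4, and 2 of *sox3*, and 3, 6, and 2 of *sox11a*. The folds of these falls thus rest on few molecules. *lgi1a* and *kcnd2* did not pass without any 1 of the replicates, *nkx2.1* and *rgmb* not without replicate 1 or 2, and *sox3* not without replicate 1. *neurod1* was not called with no replicate block, with DESeq2, with no filter on low counts, or with no thinning. The replicate block decided these counts. Without it 5 genes passed in pallial-marker and 1 in subpallial-marker neurons.

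*c1qtnf4*-positive and *c1qtnf4*-negative neurons also differed in their clusters. Cluster 15, in which *adcyap1b* leads, made up 27.2% ± 6.05 of positive and 8.85% ± 1.80 of negative pallial-marker neurons. Cluster 7 made up 36.3% ± 4.55 of positive and 13.5% ± 2.72 of negative subpallial-marker neurons. In the same gate cluster 8, led by *nell2b* and *adcyap1b*, made up 11.3% ± 2.59 of positive and 0.576% ± 0.578 of negative cells. Cluster 3 went the other way there, with 25.0% ± 1.74 of positive and 46.1% ± 4.56 of negative cells. The part of these clusters in the genes called was not tested.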

How the data were processed

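Droplet single-cell RNA sequencing (10x 3′ v2) was analysed for 3 replicate libraries of 1 group. Mapping to GRCz11 and counting were done by the authors with Cell Ranger (version 3.0.1 in the submitters' processing notes). The deposited values are whole UMI counts per gene and barcode, without normalization, and they rest on few UMIs per cell, so absence in single cells is not read. The members, marker lists, and partner list were chosen with earlier results of these data known.

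Barcodes stayed in with 200 genes or more, no more than 10% of UMIs from mitochondrial genes, and a gene number no further than 3 SD from its loess prediction by UMIs (span 0.5). Scrublet's own threshold marked under 0.03% of cells, so the cells with the highest scores (0.8% per 1000 cells; 487, 279, and 209) were left out. The remaining 17842 cells were clustered with Leiden (resolution 1, seed 1; 2000 variable genes, 30 components, 15 neighbors). No gene of the family entered. A marker was raised with UMIs in at least 10% of a cluster and a mean log difference above 0.1, and a cluster of at least 50 cells was named where at least 3 markers and 0.6 of a list were raised. This naming rule was set after the clusters had been seen. Other family rows were accounted for, and 523 symbols stand more than once in the gene table. Of the partner symbols, *grik2*, *grik3*, *clstn2a*, and *clstn2b* matched no row and were not analysed here, and 1 further partner gene is not reported here.

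UMIs were summed per replicate and group and tested with the quasi-likelihood method of edgeR 4.0.16, with TMM scaling, filterByExpr, Benjamini-Hochberg adjusted p over the whole table (threshold 0.05), and the replicate as a block. Each library gave both sums of its replicate, and their deviations from the group means correlated in every replicate for the gates (r = 0.68, 0.50, and 0.28 across genes) and for *c1qtnf4* in pallial-marker (0.52, 0.43, and 0.14) and subpallial-marker neurons (0.40, 0.21, and 0.07). Sums for the gates used all UMIs, and those for *c1qtnf4*-positive and negative cells used cells thinned to 1000 UMIs. Named genes are the partner list and, for *c1qtnf4*, up to 5 genes called with the largest rise and up to 5 with the largest fall, of those that moved the same way in all 3 replicates and had 10 UMIs or more in the higher group of each. For likeness the 3 nearest genes with a mean of at least 20 CPM were named, over sums of at least 30 cells. The fits were tested on simulated sums with the same dispersion for all genes and no library effect beyond depth. That simulation cannot check the replicate block or the spread of single genes. Alternatives were DESeq2 1.42.0, other size factors, no filter, no block, other thinning, gates, and resolutions, and leaving out each replicate. Python 3.11.15, scanpy 1.11.5, leidenalg 0.10.2, and R 4.3.3 were used.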

Additional observations from a re-analysis of the deposited data

How the results depend on the processing

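The replicate block had the largest effect on the tests. Between the gates 1566 genes passed, against 449 with no replicate block, 479 with DESeq2, 737 with UMIs thinned to 1000 per cell, and 1061 to 1570 when replicates were left out in turn. For *c1qtnf4* in pallial-marker neurons 303 passed, against 5 with no replicate block, 37 with DESeq2, 154 with no filter on low counts, 629 with no thinning, and 107 to 208 with a replicate left out. In subpallial-marker neurons 69 passed, against 1 with no replicate block, 8 with DESeq2, 132 with no filter (9 higher and 123 lower), and 31 to 46 with a replicate left out. The cause of the gap between the tools was not tested. Of the members, 3 were higher in pallial-marker neurons in all 3 replicates, against 5 with no thinning, 1 without *nell2b* in the gate, and 3 to 4 with a replicate left out. Pairs above expectation numbered 1 in pallial-marker neurons, against 2 with 500 UMIs, with no thinning, and without *nell2b*, and 1 to 3 with a replicate left out, and 0 in subpallial-marker neurons, against 2 with no thinning and 1 without *nell2b*. Members highest outside neuron-like cells numbered 2, against 1 with doublets kept and 1 to 2 with a replicate left out. Log2 folds that turned without *nell2b* in the gate were *cbln1* (−0.033) and, of the partner genes called, *adgrb1b* (−0.14) and *clstn3* (−0.018). The fold of *cbln2b*, −0.17 and within its spread, was 0.0077 without replicate 3, and 6 partner genes that were not called (*adgrb3*, *neo1b*, *nlgn2a*, *nlgn4xa*, *lrrtm1*, and *nptxrb*) changed sign in 1 setting each. DESeq2 gave no adjusted p for *igf2a* and *stc2a*, and otherwise the values of single genes kept direction and call in 346 combinations of gene and setting, lost the call in 92, and moved by more than the spread between replicates in 16. Naming clusters with 0.45 of the markers was an alternative chosen after seeing the data and changed no count by over 1.5 times. Depth limits what can be said of rare members, since positive neuron-like cells over all replicates number 125 to 160 for each cerebellin and 12 for *c1ql3a*.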
